A study of Mus musculus with 8 samples.

Results

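The genes described here are 42 splicing regulators of the mouse, 16 of the SR group and 26 of the hnRNP group, taken by symbol from a fixed list. The SR group held the Srsf genes, the Transformer-2 genes Tra2a and Tra2b, and the speckle proteins Son, Srrm1 and Srrm2. The hnRNP group held the Hnrnp genes with Syncrip, the polypyrimidine tract binding proteins Ptbp1, Ptbp2 and Ptbp3, and the poly(C) binding proteins Pcbp1 and Pcbp2. All 42 were found among the 21553 genes with a value, and all 42 passed the filter on low counts.

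SR proteins carry an RNA recognition motif and a tail rich in arginine and serine, bind enhancers in exons, and recruit the spliceosome to nearby splice sites. The hnRNP proteins coat the new transcript, and many of them keep exons out or act later in export, stability and translation. In the mouse the egg's stored RNA is degraded and the embryo's own genome is switched on around the 2-cell stage. Both the mother's supply and new transcription can therefore contribute to a message, and their shares were not measured here.

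Polyadenylated RNA was measured in whole embryos of B6CBA F1 crosses. Each embryo had received mRNA by microinjection as a zygote: that of mCherry, a fluorescent protein used as the control, that of Snrpb, that of Snrpd2, or the last 2 together. The Sm proteins made from Snrpb and Snrpd2 belong to the core ring of spliceosomal snRNPs, and their overexpression against the control was the study's comparison. RNA was taken 5 h later from 1-cell embryos or 24 h later from 2-cell embryos, which gave 8 conditions with 1 library each, every library a pool of 40 embryos from 3 experiments. No condition had a replicate, so p-values measure only the spread between differently injected pools. In pooled embryos, fewer embryos holding an RNA and less of it per embryo cannot be told apart. As only polyadenylated RNA was measured, a change in the amount of an RNA and a change in its polyadenylation cannot be told apart either.

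Depth was 39492734 to 59979046 reads per library. Snrpb and Snrpd2 were raised in each library labelled with them: the level of Snrpb was 876 to 43849.9 cRPKM against 6.09 to 26.2 in the other libraries, and that of Snrpd2 was 4726 to 17926 against 0.85 to 10.6. Oocyte and zygote markers were present at both stages (14 genes, summed level 6970 to 8129 cRPKM). The sum hides changes of single markers. In the stage test described below 12 were lower at the 2-cell stage and 2 higher (median log2 -1.83), where 70.1% of all genes were called. The 2 that rose were abundant: Btg4 went from a mean of 1819 to 3739 cRPKM and Oosp1 from 477 to 1414. The 6 markers of the 2-cell stage with an implied length of at least 100 bases (a limit set after seeing the data) summed to 11.5 to 17.6 cRPKM at the 1-cell stage and to 239 to 262 at the 2-cell stage. The single gene Ccdc82 took 6.09% to 13.6% of all reads.

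Levels are given as the deposited cRPKM, reads scaled by a length per gene and by the library's total. As a group the hnRNP messages were the more abundant: their summed level was 1703 to 1994 cRPKM in the 8 libraries, against 405 to 530 for the SR group. The ratio of the sums lay between 3.32 and 4.23, with the stages overlapping. A few genes took large shares of each sum. Pcbp1, a KH-domain protein that binds C-rich RNA, took 27.6% to 29.4% of the hnRNP sum at the 1-cell stage and 17.6% to 19.9% at the 2-cell stage. Srsf2, a founding SR protein of nuclear speckles, took 22.6% to 32.2% of the SR sum at the 1-cell stage and 15.4% to 18.0% at the 2-cell stage. At the other end, Srsf12 had 0 to 19 reads per library.

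**Figure D1:**
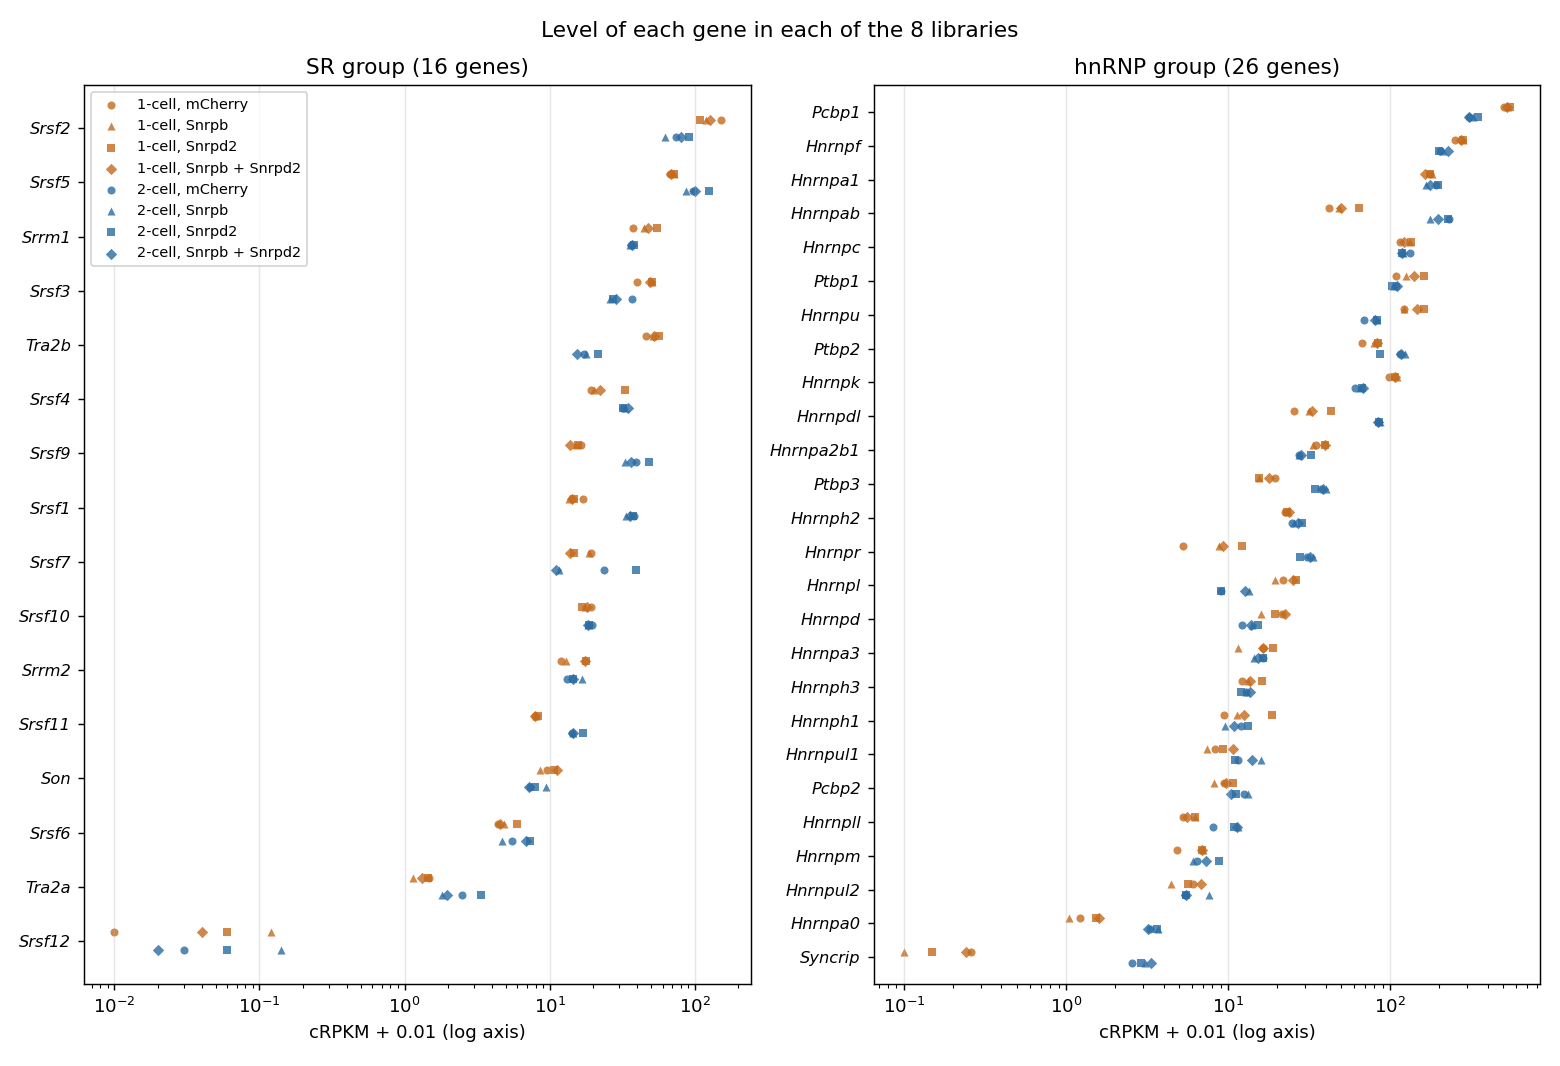
Level of each of the 42 genes (cRPKM plus 0.01, log axis) in the 8 libraries, with 1 point per library, color for the stage and shape for the injected mRNA. The genes are ordered by mean level, from Srsf2 and Pcbp1 at the top to Srsf12 and Syncrip at the bottom, and the stages separate most widely for Syncrip.

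The first comparison asked how each regulator differed between the stages. In edgeR's quasi-likelihood test with injection as a term, 3 of the 16 SR genes were higher at the 2-cell stage, 5 were lower and 8 were not called at an adjusted p of 0.05. Of the 26 hnRNP genes, 7 were higher, 11 lower and 8 not called. Across all 16264 genes tested, 70.1% were called, 38.1% higher and 32.0% lower, so the called shares (8 of 16 SR genes, and 69.2% of the hnRNP genes) did not exceed the background. The changes were mostly small. The median absolute log2 change was 0.56 in the SR group and 0.60 in the hnRNP group, against 1.07 over all genes tested. The median signed change was -0.12 for the SR genes and -0.19 for the hnRNP genes, against 0.15 over all genes. Whether the groups differ from each other or from other genes was not tested.

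The direction of the small changes depended on the scaling. With library totals in place of edgeR's TMM factors every stage change moved up by 0.26 on the log2 scale, and the median over all genes became 0.41. The split of the members was then 15 higher and 12 lower, where it was 10 higher and 16 lower with TMM. Of all 16264 genes tested, 11434 were called with library totals and 11396 with TMM. Under library totals Srsf4, Srsf5, Tra2a, Hnrnpul1 and Ptbp2 were called higher, and Son, Hnrnpc, Hnrnph1 and Hnrnph3 were no longer called lower. cRPKM uses library totals, so the levels below follow that scale and the log2 changes follow TMM. Of the 26 calls, 21 (9 higher and 12 lower) held under each alternative tried.

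**Figure D2:**
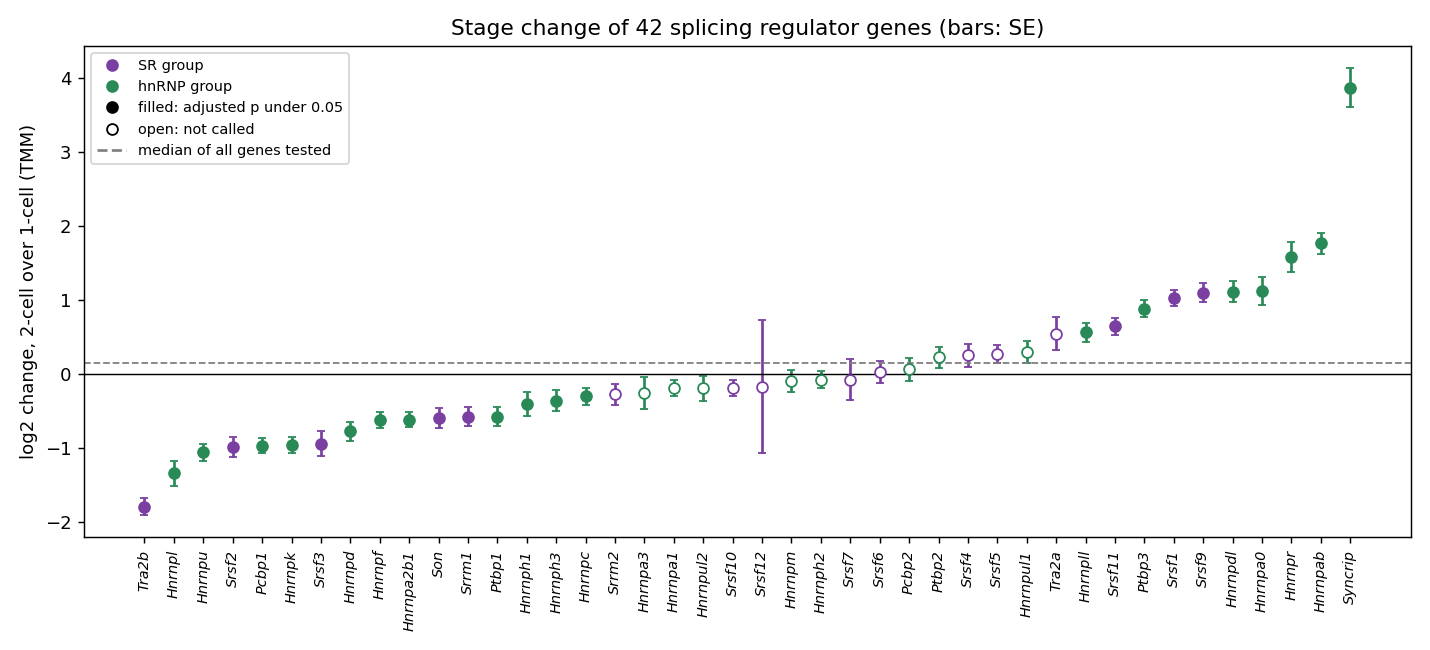
Log2 change of the 42 genes at the 2-cell against the 1-cell stage (edgeR, TMM scaling), in order of size, with bars of 1 standard error and the median of all genes tested as a dashed line. Filled points passed an adjusted p of 0.05, and Tra2b at the low end and Syncrip at the high end lie farthest from 0.

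Among the SR proteins, the closely related Srsf1 and Srsf9 rose to about the same extent. In the library order mCherry, Snrpb, Snrpd2 and both mRNAs, the level of Srsf1, the prototype SR protein, was 16.9, 13.5, 14.8 and 14.3 cRPKM at the 1-cell stage and 38.3, 33.8, 37.3 and 35.7 at the 2-cell stage. That of Srsf9 was 16.5, 15.2, 15.6 and 13.7 cRPKM and then 39.5, 33.1, 48.4 and 36.6. All 4 later libraries lay above all 4 earlier ones for both genes. By edgeR the rise was 2.04-fold for Srsf1 (log2 1.03, SE 0.10, adjusted p = 1.05e-05) and 2.14-fold for Srsf9 (log2 1.10, SE 0.13, adjusted p = 3.57e-05). Srsf11, a relative that binds near 3' splice sites, was the other SR gene called higher (log2 0.64), within 7.88 to 17.1 cRPKM over the 8 libraries and with no overlap between the stages.

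Tra2b, a Transformer-2 protein that binds GAA-rich exonic enhancers, fell the most of all 42 genes. Its level was 46.5, 51.5, 56.9 and 52.1 cRPKM at the 1-cell stage and 17.2, 17.8, 21.4 and 15.4 at the 2-cell stage, a mean of 51.8 ± 4.28 against 18.0 ± 2.52 (SD, n = 4 libraries each). No library of the later stage reached any of the earlier stage, and edgeR gave a fall of 3.46-fold (log2 -1.79, SE 0.11, adjusted p = 3.61e-07). Its paralog Tra2a was scarce: 1.47, 1.13, 1.44 and 1.31 cRPKM at the 1-cell stage and 2.47, 1.79, 3.36 and 1.95 at the 2-cell stage. The levels of Tra2a did not overlap between the stages, yet its log2 change of 0.54 missed the threshold (edgeR adjusted p = 0.0510).

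The most abundant SR messages moved down or were not called. Srsf2 stood at 151, 120.2, 109 and 127 cRPKM at the 1-cell stage and at 73.8, 62.3, 91.3 and 79.8 at the 2-cell stage, and fell 1.98-fold (log2 -0.98, SE 0.14, adjusted p = 1.09e-04, edgeR). Srsf3, the smallest SR protein, which also acts in mRNA export, had 39.7, 50.5, 50.4 and 49.5 cRPKM and then 37.2, 25.96, 27.3 and 28.8, with its mCherry library the lowest of the earlier stage and the highest of the later one. The stages did not overlap for either gene, and Srsf3 fell 1.92-fold (log2 -0.94, SE 0.17, adjusted p = 5.35e-04, edgeR). Srsf5 had 67.8, 72.3, 71.8 and 68.5 cRPKM at the 1-cell stage and 96.9, 86.8, 126 and 99.8 at the 2-cell stage. Its cRPKM ranges were apart, but its log2 change of 0.27 was not called with TMM (edgeR adjusted p = 0.0648).

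None of the speckle proteins was called higher at the 2-cell stage. Srrm1, a coactivator of SR-dependent splicing, had 37.4, 45.0, 54.6 and 47.7 cRPKM at the 1-cell stage and 36.4, 35.6, 38.0 and 37.0 at the 2-cell stage. These ranges overlapped in the mCherry library of the earlier stage, and edgeR called the gene lower (log2 -0.58). Son, a scaffold of nuclear speckles, was called lower by a similar log2 of -0.60, and Srrm2, another speckle scaffold, was not called (log2 -0.28). Over the 8 libraries Son lay within 7.14 to 11.2 cRPKM and Srrm2 within 11.9 to 17.9. Among the remaining SR genes Srsf4 (19.2 to 34.9 cRPKM), Srsf6 (4.41 to 7.29), Srsf7 (11.1 to 39.4), Srsf10 (16.8 to 19.6) and Srsf12 were not called. Their log2 changes ran from -0.19 for Srsf10 to 0.25 for Srsf4.

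Among the hnRNP genes Syncrip, also known as hnRNP Q and active in mRNA stability and translation, rose the most. Its level was 0.25, 0.09, 0.14 and 0.23 cRPKM at the 1-cell stage, from 35 to 91 reads, and 2.54, 3.06, 2.90 and 3.32 at the 2-cell stage. The rise was 14.6-fold (log2 3.87, SE 0.26, adjusted p = 6.09e-07, edgeR), and its mean level stayed the lowest of the hnRNP genes. Its close relative Hnrnpr had 5.30, 8.83, 12.3 and 9.29 cRPKM at the 1-cell stage, lowest with mCherry, and 30.6, 33.2, 27.6 and 31.8 at the 2-cell stage. Hnrnpr rose 3.0-fold (log2 1.58, SE 0.20, adjusted p = 6.06e-05, edgeR), with no overlap between the stages.

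The relatives Hnrnpab, Hnrnpd and Hnrnpdl bind AU-rich RNA and act on mRNA stability as well as splicing, and they went different ways. Hnrnpab had 42.1, 48.2, 64.2 and 49.9 cRPKM at the 1-cell stage and 230.5, 176, 226 and 197 at the 2-cell stage, which made it the third hnRNP message by level at the later stage. It rose 3.41-fold (log2 1.77, SE 0.14, adjusted p = 2.02e-06, edgeR), and the stages were far apart. Hnrnpdl had 25.4, 31.6, 43.4 and 33.1 cRPKM and then 83.8, 86.3, 85.4 and 84.3. The 4 later libraries of Hnrnpdl agreed within 1.03-fold, while the earlier ones spread over 1.71-fold, and the rise was 2.16-fold (log2 1.11, SE 0.14, adjusted p = 5.87e-05, edgeR). Hnrnpd had 21.5, 16.04, 19.4 and 22.3 cRPKM and then 12.1, 14.1, 15.2 and 13.8. This was a fall of 1.71-fold (log2 -0.78, SE 0.12, adjusted p = 2.88e-04, edgeR), without overlap.

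In the A group, whose best known members bind UAG motifs and silence exons, Hnrnpa0 was the one that rose. It had 1.21, 1.04, 1.52 and 1.58 cRPKM at the 1-cell stage and 3.27, 3.68, 3.65 and 3.19 at the 2-cell stage (log2 1.12, SE 0.19, adjusted p = 4.14e-04, edgeR), without overlap, and its gene has a single annotated exon. Hnrnpa1 was far more abundant, at 175, 181, 177 and 163 cRPKM and then 192, 166, 196 and 176. Its ranges overlapped and its log2 change of -0.19 was not called. Hnrnpa2b1, within 27.3 to 39.5 cRPKM, was called lower (log2 -0.62), and Hnrnpa3, within 11.5 to 18.9, was not called.

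The KH-domain proteins that bind C-rich RNA fell or were not called. Pcbp1, the most abundant message of all 42, had 501, 532, 550.4 and 525 cRPKM at the 1-cell stage and 305, 325, 351 and 307 at the 2-cell stage, a fall of 1.96-fold (log2 -0.97, SE 0.10, adjusted p = 1.34e-05, edgeR). Hnrnpk had 98.0, 110.1, 107 and 107 cRPKM and then 60.8, 65.2, 67.1 and 67.5, and fell 1.94-fold (log2 -0.96, SE 0.11, adjusted p = 2.05e-05, edgeR). Both genes were lower in each of the 4 later libraries than in any earlier one. Pcbp2 lay between 8.16 and 13.4 cRPKM with overlapping stages and was not called.

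Hnrnpl, which binds CA-rich RNA, and Hnrnpu, a nuclear scaffold protein, were the other large falls. The level of Hnrnpl was 21.8, 19.6, 26.1 and 25.0 cRPKM at the 1-cell stage and 9.03, 13.5, 9.0 and 12.7 at the 2-cell stage. That of Hnrnpu was 121, 122, 163 and 147 cRPKM and then 69.4, 82.9, 82.5 and 81.2. The stages did not overlap for either gene, and edgeR gave falls of 2.53-fold for Hnrnpl (log2 -1.34, SE 0.17, adjusted p = 4.61e-05) and 2.09-fold for Hnrnpu (log2 -1.06, SE 0.11, adjusted p = 1.51e-05). The Hnrnpl paralog Hnrnpll, known for its part in T-cell splicing, went the other way, with 5.28, 6.24, 6.23 and 5.57 cRPKM at the 1-cell stage and 8.02, 11.4, 10.8 and 11.4 at the 2-cell stage (log2 0.57, SE 0.13, adjusted p = 0.00289, edgeR). That call was lost when the 1-cell library with both mRNAs was left out (log2 0.44, edgeR adjusted p = 0.0506). The relatives of Hnrnpu, Hnrnpul1 (7.37 to 15.9 cRPKM) and Hnrnpul2 (4.42 to 7.66), were not called.

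Hnrnpf, the second hnRNP message by level, binds G-runs. It had 251, 283, 279.8 and 273 cRPKM at the 1-cell stage and 204, 212, 201 and 226 at the 2-cell stage, and it fell 1.54-fold (log2 -0.62, SE 0.11, adjusted p = 5.42e-04, edgeR) with no overlap. Its relatives Hnrnph1 (9.44 to 18.7 cRPKM) and Hnrnph3 (12.03 to 16.2) overlapped between the stages and were called lower, by log2 -0.41 and -0.36. Those calls, and that of Hnrnpc (log2 -0.30, within 115 to 134 cRPKM), a protein that binds uridine tracts, were lost under library totals, where the log2 changes were -0.15, -0.10 and -0.04. Leaving out any of the 6 libraries with Sm mRNA ended them too, where fits that drop either library of an injection rest on the same pairs. Hnrnph2 (22.6 to 28.5 cRPKM) was not called with TMM (log2 -0.07), although its cRPKM was higher in every later library than in any earlier one. Hnrnpm, within 4.85 to 8.83 cRPKM, was not called.

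The polypyrimidine tract binding proteins, which mostly silence exons, each took a different course. Ptbp1, the form of most tissues, had 108, 125, 161 and 139.7 cRPKM at the 1-cell stage and 108, 104, 103 and 111 at the 2-cell stage, and was called lower by edgeR (log2 -0.58). Ptbp2, best known from neurons, had 67.2, 79.6, 83.7 and 83.2 cRPKM and then 115, 124, 86.3 and 117, and was not called (log2 0.23). Ptbp3 had 19.6, 15.4, 15.6 and 17.9 cRPKM and then 37.7, 40.1, 34.3 and 38.7, and rose (log2 0.89). The stages overlapped for Ptbp1 and were apart for Ptbp2 and Ptbp3.

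On the cRPKM scale alone, the 4 libraries of one stage did not overlap those of the other for 8 of the 16 SR genes (5 higher and 3 lower at the 2-cell stage) and for 17 of the 26 hnRNP genes (10 higher and 7 lower). The background was 65.8% of the 16918 genes with at least 10 reads in a library, and the 25 of 42 members did not exceed it.

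The promoters of some of the genes that moved the most are shown for the motifs they hold, as the 150 bases before the start in RefSeq's GRCm38.p6 annotation. The deposited values were made on mm9, so these coordinates are not those of the files, and which start the embryos used was not measured. The motifs searched, on both strands, were CCAAT, the GC box GGGCGG, the ETS core CGGAAG, the TATA box TATAAA, the homeodomain motif GGATTA, the E-box CACGTG and the cyclic AMP element TGACGTCA. Capitals mark CCAAT and GGGCGG or their reverse complements. Hnrnpab (chr11:51606882-51607031, minus strand) and Hnrnpr (2 starts, chr4:136310792-136310941 and chr4:136311448-136311597, plus strand) rose, and Tra2b (chr16:22266006-22266155, minus strand) and Hnrnpl (chr7:28810740-28810889, plus strand) fell.
Hnrnpab: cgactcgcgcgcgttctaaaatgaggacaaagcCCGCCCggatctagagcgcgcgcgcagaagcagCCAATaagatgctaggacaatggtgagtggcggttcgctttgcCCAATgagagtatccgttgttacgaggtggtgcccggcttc
Hnrnpr start 1: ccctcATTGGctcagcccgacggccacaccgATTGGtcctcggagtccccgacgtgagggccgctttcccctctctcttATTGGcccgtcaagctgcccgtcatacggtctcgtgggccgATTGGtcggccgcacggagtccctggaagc
Hnrnpr start 2: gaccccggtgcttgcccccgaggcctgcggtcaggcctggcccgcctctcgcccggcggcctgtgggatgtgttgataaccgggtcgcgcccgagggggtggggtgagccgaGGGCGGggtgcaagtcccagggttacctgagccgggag
Tra2b: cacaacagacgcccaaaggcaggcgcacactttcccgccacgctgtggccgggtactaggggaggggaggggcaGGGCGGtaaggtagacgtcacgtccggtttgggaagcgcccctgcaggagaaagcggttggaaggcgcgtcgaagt
Hnrnpl: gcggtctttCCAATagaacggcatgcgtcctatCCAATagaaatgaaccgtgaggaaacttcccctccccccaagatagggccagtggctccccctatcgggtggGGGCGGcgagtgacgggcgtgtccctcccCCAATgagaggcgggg
Both a gene that rose and a gene that fell held CCAAT with a GC box: Hnrnpab had 2 copies of CCAAT and 1 of GGGCGG, and Hnrnpl had 3 and 1. The first start of Hnrnpr had 4 copies of CCAAT and no GC box in this window. Tra2b had 1 GC box and no CCAAT.

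In the 250 bases before the start, which 39 of the 42 genes had in the table at 53 starts, GGGCGG stood before 75.5% of starts, against 32.7% of all 32851 starts. CGGAAG stood before 35.8% against 13.6%, and CCAAT before 45.3% against 33.8%. TATAAA stood before 5.66% against 12.4%, GGATTA before 3.77% against 6.25%, CACGTG before 9.43% against 6.02% and TGACGTCA before 1.89% against 1.55%. The 32851 starts belong to 27025 genes and were not limited to genes with reads, while all members passed the filter on low counts. The shares were not compared with those of other genes that passed it. A match is a description of the letters, not a site in use. CCAAT was before 30.0% of SR starts and 54.5% of hnRNP starts. Genes called higher had GGGCGG at 10 of 10 starts and CCAAT at 3 of 10, and genes called lower had them at 14 and 15 of 24. These are counts of letters over few genes, starts of 1 gene are not independent, and no difference was tested.

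Transcripts marked for nonsense-mediated decay were annotated for 14 of 16 SR genes (87.5%) and 14 of 26 hnRNP genes (53.8%), against 25.2% of 16313 protein-coding genes with at least 10 reads in a library (GENCODE vM21). Many genes of both families are known to limit their own output through such poison exons. Transcripts with a retained intron were annotated for 81.2% of SR genes, 73.1% of hnRNP genes and 51.8% of those protein-coding genes. Values per gene do not tell these transcripts apart, so productive and decaying forms were not measured here.

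The next comparison set paralogs against each other within each library, with 0.1 added to each cRPKM. For 18 of 28 paralog pairs (64.3%) the 4 ratios of one stage did not overlap the 4 of the other. The same held for 552 of all 861 pairs of members (64.1%), which is the background here. Each of the 18 had the smallest p that 4 against 4 libraries allow (exact permutation test, two-sided, p = 0.0286, 0.0444 after Benjamini-Hochberg adjustment over the 28 pairs). All but 1 of them were hnRNP pairs: 17 of 21 hnRNP pairs separated, and 1 of 7 SR pairs. Many pairs share a gene, so the pairs are not independent, and whether the groups differ was not tested. The median absolute difference in log2 ratio was 0.60 over the paralog pairs and 0.80 over all pairs. With 1 library left out, 18 to 20 pairs did not overlap. After adjustment 17 to 19 pairs passed without a 1-cell library and 0 without a 2-cell library, so the 18 calls did not hold in every such fit. The exact test is then near its smallest p. Pairs at that p share the same adjusted value, so they pass or fail together by how many reach it. These counts therefore say nothing of single pairs. Without the added 0.1, 18 of the 27 pairs that had no value at 0 did not overlap. How reads shared by near-identical paralogs or their processed copies were counted, and whether strand was used, is not given in the sources used here, so ratios of close paralogs are uncertain to that extent. The counted length can also be short: the one implied for Hnrnpa3 was 214 bases.

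The widest shift was that of Hnrnpab over Hnrnpd. In the same library order their cRPKM ratio was 1.95, 2.99, 3.29 and 2.23 at the 1-cell stage and 18.9, 12.4, 14.8 and 14.2 at the 2-cell stage. The mean log2 ratio went from 1.36 ± 0.35 to 3.90 ± 0.25 (SD, n = 4 libraries each), a difference of 2.54. Hnrnpab was the more abundant of the pair in all 8 libraries. Hnrnpd over Hnrnpdl went from 0.845, 0.509, 0.449 and 0.676 to 0.146, 0.164, 0.179 and 0.164, a log2 difference of -1.88, so Hnrnpd lost ground to both relatives.

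Tra2a over Tra2b was the SR pair that separated. Its ratio was 0.0337, 0.0238, 0.0270 and 0.0270 at the 1-cell stage and 0.148, 0.106, 0.161 and 0.132 at the 2-cell stage, a log2 difference of 2.29. Tra2b thus exceeded Tra2a by a geometric mean of 36.1-fold at the earlier stage and 7.40-fold at the later one. The other SR pairs, Srsf1 with Srsf9, Srsf3 with Srsf7, Srsf4, Srsf5 and Srsf6 among themselves, and Srsf10 with Srsf12, overlapped. Srsf1 over Srsf9 lay between 0.77 and 1.04 in all 8 libraries.

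Hnrnpl over Hnrnpll fell from 4.06, 3.10, 4.15 and 4.43 to 1.12, 1.18, 0.834 and 1.11, a log2 difference of -1.89 that left the pair near parity. Hnrnpr over Syncrip fell from 15.4, 47.0, 51.5 and 28.5 to 11.6, 10.5, 9.24 and 9.34, a log2 difference of -1.66. Syncrip was at 0.09 to 0.25 cRPKM at the 1-cell stage, so the added 0.1 lowers these ratios: without it they were 21.2, 98.1, 87.6 and 40.4 at the 1-cell stage and 12.04, 10.9, 9.52 and 9.59 at the 2-cell stage, a log2 difference of -2.32, which would make it the largest fall of the 27 pairs. Ptbp1 over Ptbp2 was the 1 pair whose mean order turned: 1.61, 1.57, 1.93 and 1.68 at the 1-cell stage and 0.940, 0.836, 1.19 and 0.946 at the 2-cell stage. Ptbp1 led in all 4 earlier libraries, and Ptbp2 led in all later ones but that with Snrpd2. Pcbp1 exceeded Pcbp2 by 55.1-fold and then 27.0-fold in geometric mean.

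**Figure D3:**
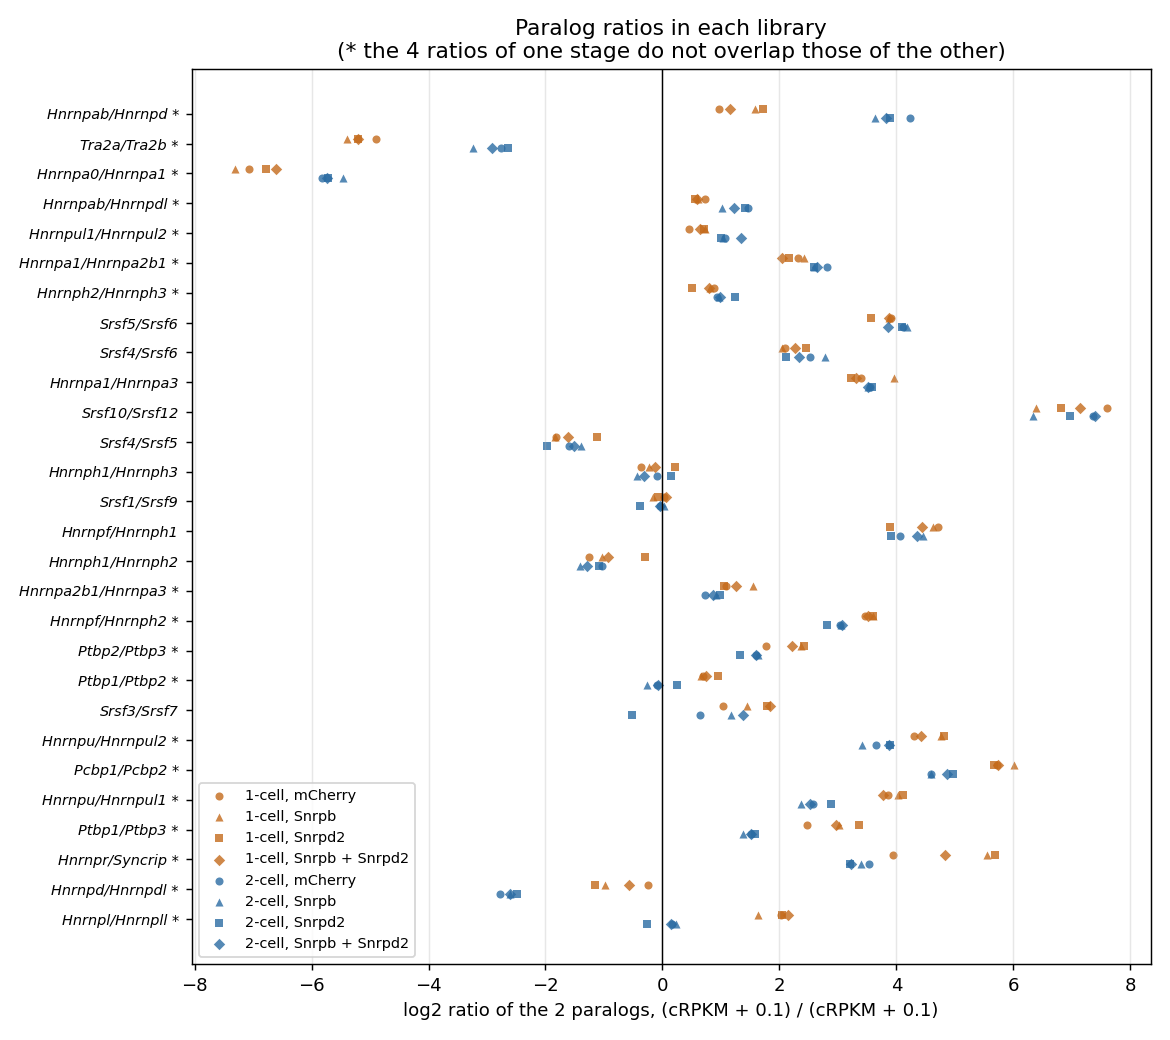
Log2 ratio of the 2 members of each of 28 paralog pairs (cRPKM plus 0.1) in the 8 libraries, with 1 point per library, color for the stage and shape for the injected mRNA. A star marks the 18 pairs whose stages do not overlap, and the ratios are ordered by their stage difference from Hnrnpab/Hnrnpd at the top to Hnrnpl/Hnrnpll at the bottom; without the added 0.1, Hnrnpr/Syncrip would lie lowest.

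Around these regulators stand the kinases that phosphorylate SR proteins and the importins that carry them, of which 2 of 12 listed genes rose and 7 fell by edgeR (70.1% of all genes were called). The median log2 change of this list was -0.43. The kinase Clk1 had 119, 108, 94.7 and 105 cRPKM at the 1-cell stage and 8.07, 6.36, 7.81 and 7.04 at the 2-cell stage, a fall of 17.4-fold (log2 -4.12, SE 0.13, adjusted p = 1.48e-08, edgeR). Its relatives Clk2 and Clk3 fell by log2 -2.04 and -2.05, while Clk4 rose by 1.00 to at most 5.28 cRPKM. Tnpo3, the importin of SR proteins, rose by log2 2.31.

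Of 31 SR-related and hnRNP-like genes tested (32 listed), 6 rose and 17 fell, with a median log2 change of -1.03. The called share was 74.2%, against 70.1% of all genes. Pnisr and Tardbp were among those that fell (log2 -2.37 and -2.33). Tardbp, which encodes the RNA-binding protein TDP-43, had 41.4 to 56.0 cRPKM at the 1-cell stage and 9.83 to 12.4 at the 2-cell stage. Rbmx, the X-linked hnRNP G gene, rose from 0.32 to 0.70 cRPKM to 14.5 to 17.2 (log2 4.69), with Rbmxl1 and Raly next (log2 1.44 and 1.11). Among 33 tissue splicing regulators 11 rose and 12 fell (69.7% called), with a median of -0.10. Rbm10 rose from at most 0.76 cRPKM to 43.0 to 52.9 (log2 6.35) and Celf6 by log2 4.18. Rbm24 had 2 reads over the earlier stage and 190 over the later, a ratio of 104 (exact 95% counting interval 28.4 to 864). Rbm20, Khdrbs2 and Rbm39 fell (log2 -2.11, -1.84 and -1.37).

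The last comparison asked whether any of the 42 genes differed with the Sm mRNAs. edgeR called 0 members for any Sm injection against mCherry at the 1-cell stage and 0 at the 2-cell stage, and 0 for a difference between the stages in that effect (0.0% of 16867 genes in each). The injected Snrpb and Snrpd2 were thus not called either, although each was raised in every library labelled with it. Each was raised in only some of the Sm libraries pooled here. The fit therefore cannot show that the members were unchanged. At an unadjusted p under 0.05 there were 4 SR and 5 hnRNP genes at the 1-cell stage (2618 of all genes), 1 and 1 at the 2-cell stage (637), and 1 and 3 for the difference between the stages (1648). The lone mCherry library of each stage was assumed to vary like the injected ones. limma on log2 cRPKM called 0 members in each of the 3, and DESeq2 called 1, 0 and 1.

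Those 2 genes were Hnrnpr and Srsf3. Hnrnpr at the 1-cell stage had 5.30 cRPKM with mCherry and 8.83 to 12.3 with Sm mRNA, and at the 2-cell stage its mCherry value of 30.6 lay within the range of the others. The 1-cell log2 difference was 0.97 (SE 0.23, adjusted p = 0.147) in edgeR and 0.96 (adjusted p = 0.00331) in DESeq2, which called 540 genes in all. Srsf3 was lowest with mCherry at the 1-cell stage and highest with mCherry at the 2-cell stage, as given above. The difference between its stage-wise effects was -0.85 on the log2 scale (SE 0.21, adjusted p = 0.381) in edgeR and -0.83 (adjusted p = 0.0462) in DESeq2, which called 63 genes.

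Most hnRNP genes lay above the single control at the 1-cell stage. All 3 injected libraries lay above mCherry in cRPKM for 15 of 26 hnRNP genes and 8 of 16 SR genes, where 25.3% of 16918 genes did so. They all lay below it for 2 hnRNP genes (Ptbp3 and Syncrip) and 6 SR genes, against 35.3% of all genes. At the 2-cell stage they lay above for 10 and 2 genes (26.9% of all genes) and below for 3 and 3 (18.1%). These counts rest on 1 mCherry library per stage, and the 1-cell one differed in other ways. Ccdc82 took 10.8% of its reads against 6.09% to 7.44% in the injected 1-cell libraries. The summed level of 18 cumulus and granulosa cell markers was 24.5 cRPKM in it and 34.6 to 54.0 in the injected ones, with 10 of 18 above mCherry in all 3 and no marker at 0 throughout. At the 2-cell stage that sum was 22.9 with mCherry and 22.9 to 33.6 with Sm mRNA, with 6 of 18 above mCherry in all 3. Like sums hide single markers: between the stages edgeR called 3 of 17 tested higher and 5 lower (70.1% of all genes were called). Cyp19a1 went from 15.5 to 19.7 cRPKM down to 3.46 to 4.60, and Foxl2 from at most 0.05 up to 3.34 to 5.40. The part of Ccdc82 or of these markers in the counts of members was not tested.

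Ratios of single libraries to the mCherry library of their stage have no replicate check and compare libraries, not conditions. Over the 6 ratios of the 41 members with at least 50 reads, 5 were at least 2-fold with the whole exact 95% counting interval beyond no change. At the 1-cell stage these were 1 of 41 with Snrpb, 2 with Snrpd2 and 0 with both (4.66%, 5.16% and 4.16% of all genes), and at the 2-cell stage 1, 0 and 1 (4.37%, 4.31% and 3.51%). At 1.5-fold there were 3, 8 and 1 at the 1-cell stage (16.2%, 21.8% and 13.8% of all genes) and 1 in each library of the 2-cell stage (14.2%, 13.3% and 11.7%). The median ratio over the 41 members was 1.10 with Snrpb, 1.17 with Snrpd2 and 1.08 with both at the 1-cell stage. At the 2-cell stage it was 1.01 with Snrpb, 1.02 with Snrpd2 and 1.00 with both.

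Srsf7, an SR protein with a zinc knuckle, varied most among the 2-cell libraries, apart from Srsf12 with its 1 to 15 reads. Its level was 19.2, 18.5, 14.6 and 13.7 cRPKM at the 1-cell stage and 23.8, 11.5, 39.4 and 11.1 at the 2-cell stage. The 2 later libraries with Snrpb mRNA were low and the one with Snrpd2 alone was high, a spread of 3.56-fold, with Tra2a next at 1.88-fold. Against mCherry the ratio was 0.48 with Snrpb (95% counting interval 0.44 to 0.52), 0.45 with both (0.42 to 0.49) and 1.56 with Snrpd2 (1.48 to 1.65). With edgeR its stage change was not called. Leaving out the 1-cell or the 2-cell Snrpd2 library gave a log2 change of -0.51 (edgeR adjusted p = 0.0456 and 0.0451). Both fits rest on the same remaining pairs of libraries, because the injection term absorbs the partner left alone, so they are not separate results.

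At the 1-cell stage the ratios past 2-fold were those of Hnrnpr with Snrpd2 (2.37, interval 2.18 to 2.58), Hnrnph1 with Snrpd2 (2.03, interval 1.90 to 2.18) and Syncrip with Snrpb (0.38, interval 0.25 to 0.57). The last rests on 35 reads against 91. Hnrnpr was also above mCherry with Snrpb (1.78) and with both (1.72). Reads copied by PCR are not separate molecules, so the intervals cover counting error only.

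**Figure D4:**
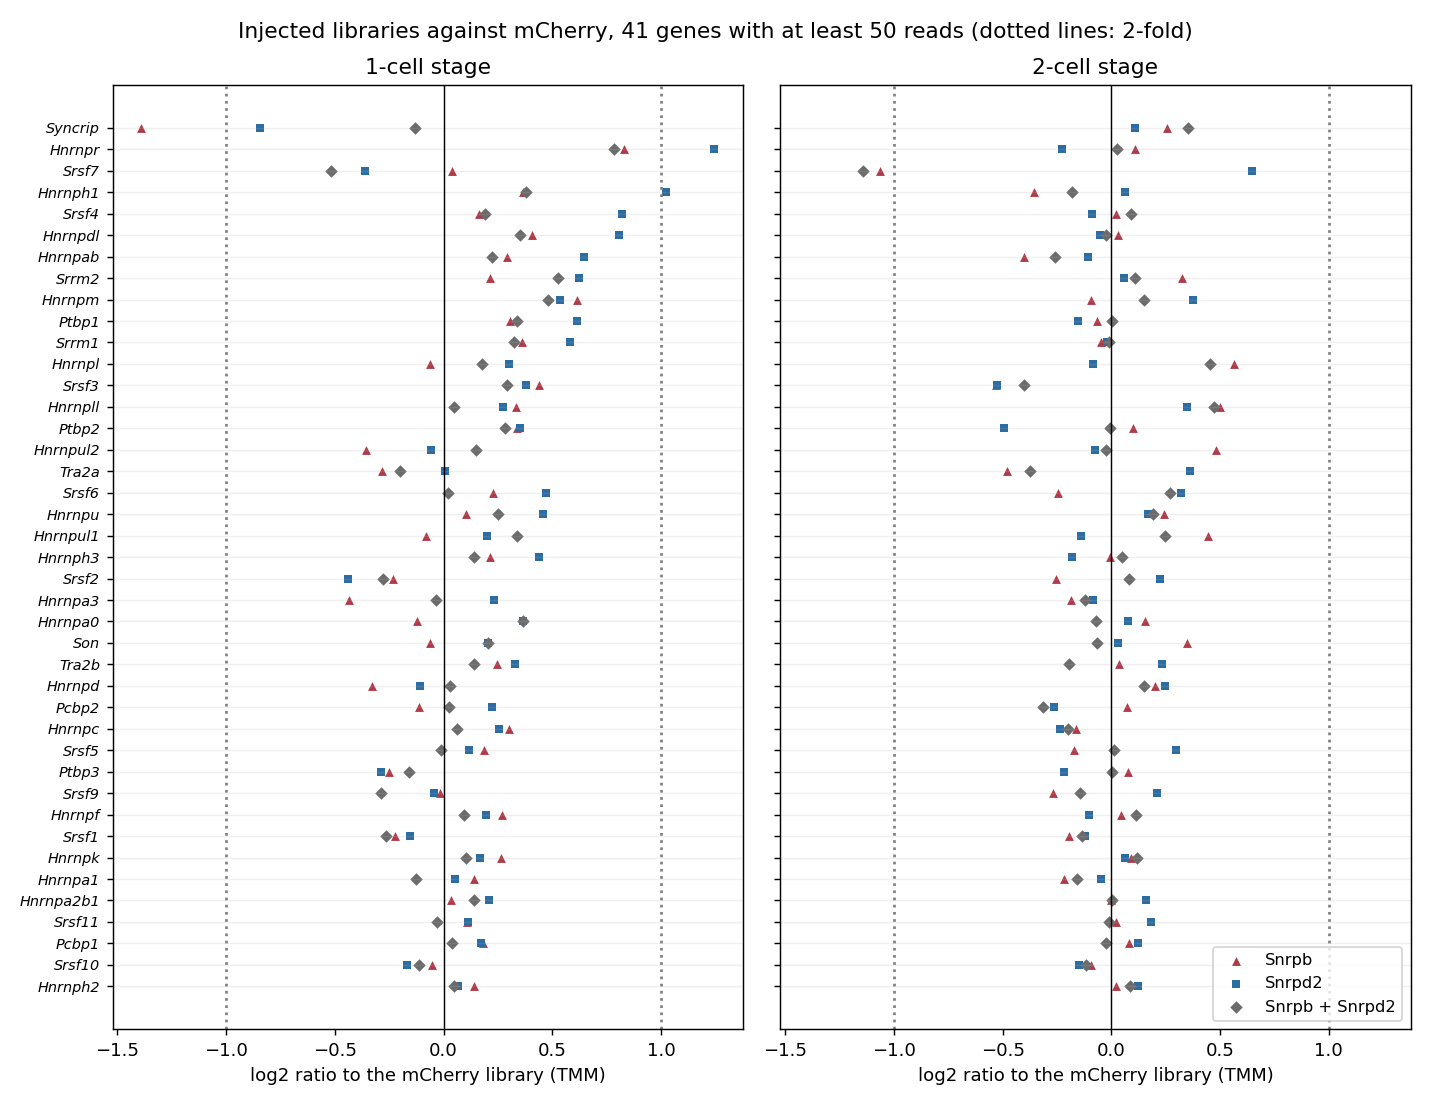
Log2 ratio of each injected library to the mCherry library of the same stage (TMM scaling) for the 41 genes with at least 50 reads, at the 1-cell stage on the left and the 2-cell stage on the right, with dotted lines at 2-fold. Most points lie between the lines; Syncrip, Hnrnpr and Hnrnph1 pass them at the 1-cell stage and Srsf7 at the 2-cell stage.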

How the data were processed

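Polyadenylated RNA of pooled mouse embryos was sequenced (SMARTer Stranded kit, HiSeq2500, per the labels' protocols), in 8 libraries of 1 condition each. The deposited files hold read counts per gene that the authors made, and the authors' cRPKM, a form of RPKM. The submitters' processing notes name mm9 as the build. For the aligner, the annotation, use of strand and multi-mapping reads, the method is not given in the sources used here. In the 2662 genes with over 2000 reads in every library, counts, library totals and cRPKM implied a length per gene. In each library it differed by at most 0.206% from that gene's median over the libraries. No annotated length entered that check. For 9 of the 41 members with an implied length, it was under 60% of the longest annotated coding transcript. Of 22667 gene IDs, 21553 had values, and symbols came from GENCODE vM21 by ID.

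Counts were tested with edgeR 4.0.16 (R 4.3.3, quasi-likelihood, TMM, filterByExpr, Benjamini-Hochberg over all genes, threshold 0.05). The stage model had injection as a term and 3 residual degrees of freedom. The injection model had 4 groups (stage, with or without Sm mRNA) and 4. DESeq2 1.42.0 and limma 3.58.1 (pseudocounts 0.1 and 1) were alternatives, with other scalings, no filter and each library left out. Single-library ratios used exact 95% intervals and at least 50 reads. The tests were checked on simulated counts.

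Members and lists were chosen with earlier results of these data known. Library values are given for the 6 called genes of largest change in each direction, the 4 most abundant of each group and both members of the 5 pairs that shifted most, and for some of their relatives. From other lists the 3 called of largest change in each direction are named (5 listed symbols were not matched), except 1 gene that is not reported here. Depth was 39492734 to 59979046 reads per library.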

Additional observations from a re-analysis of the deposited data

Results flagged for a closer look

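Over 84 sets of 4 libraries (42 genes at 2 stages), 7 had 1 library farther from the rest than a gap rule for 4 values allows, and chance alone gives about 1 in 20 such sets. In the mCherry library of the 1-cell stage, Srsf3 was at 39.74 cRPKM (others 49.5 to 50.5) and Hnrnpm at 4.85 (others 6.86 to 6.95). In the mCherry library of the 2-cell stage, Hnrnpc was at 132.24 cRPKM (others 117.8 to 119.2) and Hnrnpu at 69.38 (others 81.2 to 82.9). In the 2-cell library with Snrpd2 mRNA, Srsf11 was at 17.05 cRPKM (others 14.2 to 14.5) and Hnrnpa2b1 at 32.3 (others 27.3 to 28.0). In the 2-cell library with Snrpb mRNA, Hnrnpul2 was at 7.66 cRPKM (others 5.44 to 5.47).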

How the results depend on the processing

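With each library left out in turn, the count of members called for stage ranged from 9 to 12 higher and from 13 to 17 lower. Over all genes 10297 to 11040 were called. Fits that drop either library of an injection rest on the same pairs, so they are not separate checks. Members called for an injection or for its stage dependence stayed at 0. The mCherry library that such a test needs could not be left out, as the only control of its stage. The paralog pairs without overlap ranged from 18 to 20. Without the constant added to cRPKM, an alternative chosen after seeing the data, it was 18 of 27. The count of pairs that passed after adjustment fell to 0 with any of the 2-cell libraries left out, but not without a 1-cell library. Pairs at the smallest p pass or fail together there, so this is no weakness of single pairs. DESeq2 called 1 member for injection at the 1-cell stage (Hnrnpr) and 1 for stage dependence (Srsf3). Counting single-library ratios from 1.5-fold gave 15 in place of 5. Without the injection term 12 members were called higher and 17 lower. In that fit 15 SR and 26 hnRNP genes were tested, and 11407 of all 15400 genes tested were called. Some genes that were not called changed sign in some settings. With library totals, limma at a pseudocount of 0.1 and limma at 1, the log2 stage changes were 0.1818, 0.1873 and 0.186 for Srsf7, 0.0685, 0.0684 and 0.0651 for Srsf10, 0.1027, 0.0383 and 0.0065 for Srsf12, 0.0674, 0.0671 and 0.0668 for Hnrnpa1, 0.0041, 0.0059 and 0.0043 for Hnrnpa3, 0.1845, 0.1834 and 0.177 for Hnrnph2, 0.1651, 0.1618 and 0.1424 for Hnrnpm, and 0.0673, 0.0679 and 0.0585 for Hnrnpul2. Srsf7 was at 0.0952 without the injection term, and Srsf6 at -0.0246 without the filter. With each library left out, the log2 change ranged from -0.1237 to 0.1479 for Srsf6, from -0.5146 to 0.2294 for Srsf7, from -0.5997 to 0.2922 for Srsf12, from -0.2397 to 0.0339 for Hnrnpm and from -0.0627 to 0.122 for Pcbp2. The cause of these sign changes was not tested, apart from the shift of 0.26 that library totals give every gene. Over the stage changes of single members in all settings, 514 values kept their direction and side of the threshold, 37 lost and 35 gained a call, and 43 changed sign. The stage test already pairs the stages by injection, and the fit without that term is given above; conditions themselves had 1 library each. Depth limits Srsf12 (0 to 19 reads) and Syncrip at the 1-cell stage (35 to 91 reads).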
